A study of Rattus norvegicus with 8 samples.

Results

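The 10 genes described here mark macrophages and other leukocytes. They are Cd68, Cd14, Aif1, Tyrobp, Fcer1g, C1qa, C1qb, C1qc, Csf1r and Ptprc, and their probes were found by gene name among the rat probes of the array. They make up 10 of 34912 gene names and 13 of 45598 rat probes, printed on 42 of 58717 spots. The arrays measured RNA of primary osteoblast-like cells from calvariae of Wistar rats aged 3 to 5 days, taken from the later fractions of a serial enzymatic digestion after the periosteum had been removed. All cultures received osteoinduction medium. In 4 cultures the cells received 3.3 J/cm2 from an Er:YAG laser and were collected 6 h later (irradiated replicates 1 to 4), and 4 cultures were not exposed (non-irradiated replicates 1 to 4). The preparation is an adherent primary culture and was not sorted, so cells other than osteoblasts could be carried along. In such RNA, fewer cells of a type and less RNA per cell cannot be told apart.

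Macrophages arise from blood monocytes or from precursors seeded before birth, and bone holds resident macrophages beside the osteoclasts, which form by fusion of cells of the same lineage. Csf1r, the receptor for the growth factors Csf1 and Il34, keeps these cells alive. Tyrobp (DAP12) and Fcer1g are short membrane adaptors that pass signals from receptors such as Trem2 and the activating Fc receptors to the kinase Syk. C1qa, C1qb and C1qc encode the A, B and C chains of C1q, which starts the classical complement pathway and is made largely by tissue macrophages. Aif1 (Iba1) is an actin-binding protein of macrophages, Cd68 a glycoprotein of their lysosomes, Cd14 a co-receptor for lipopolysaccharide, and Ptprc (CD45) a phosphatase at the surface of nearly every leukocyte. Cd68 and Cd14 are also known from fibroblasts and other stromal cells.

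The probes decide what could be seen, and 3 are shown because probes close to each other on the genome differed in how often they were well above background. The first matches C1qa and the second C1qc, which lie with C1qb within 15108 bp on chromosome 5 of the rat build rn4. The third is the probe of Aif1 that was not well above background on any array. Its 60 bases span 582 bp of the genome and so cross an intron. Each is written 5′ to 3′ as on the array.
C1qa, probe A_44_P487761: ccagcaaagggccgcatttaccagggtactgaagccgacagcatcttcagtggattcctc
C1qc, probe A_44_P500708: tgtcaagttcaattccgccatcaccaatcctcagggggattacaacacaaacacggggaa
Aif1, probe A_44_P421534: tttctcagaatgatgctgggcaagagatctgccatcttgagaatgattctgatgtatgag
In rn4 coordinates the C1qa probe lies at chr5:155662578-155662637, the C1qc probe at chr5:155656638-155656697 and the C1qb probe A_64_P045476 at chr5:155647530-155647589. The Aif1 probe shown lies at chr20:3715562-3716143, and the other Aif1 probe, A_44_P1087313, at chr20:3716266-3716325. The GC content was 55.0% for C1qa, 48.3% for C1qc and 41.7% for both Aif1 probes.

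Of the 10 genes, 7 were well above background on all 8 arrays by the scanner software's flag. These were Cd68, Cd14, Aif1, Tyrobp, Fcer1g, C1qa and C1qb. A gene was counted here by any of its probes. Counted by probe, 7 of the 13 probes of the 10 genes passed on all 8 arrays. Of all rat probes 53.5% passed on all 8 arrays and 25.4% on none. The other 3 genes were C1qc, Csf1r and Ptprc, which passed the flag on some arrays only. The level of background can be read from 308 negative control spots per array, whose 99th percentile of processed signal was between 3.56 and 10.1. The signal is in arbitrary units, and levels of different probes cannot be set against each other.

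The lysosomal gene Cd68 (chr10:56481726-56481785) had processed signals of 89.8 to 199 and the co-receptor Cd14 (chr18:29374990-29375049) of 581 to 1260. The adaptor Tyrobp (chr1:85369110-85369169) ranged from 39.7 to 123 and Fcer1g (chr13:87119567-87119626) from 57.6 to 139. Aif1 ranged from 27.4 to 86.7, C1qa from 14.2 to 37.2 and C1qb from 157 to 241. All of these values lie above the 99th percentile of the negative controls of their own array.

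The receptor phosphatase Ptprc (chr13:51246523-51246582) gave signals of 3.30, 5.24, 3.04 and 2.82 in non-irradiated replicates 1 to 4 and 4.8, 3.27, 14.7 and 4.65 in irradiated replicates 1 to 4. It was well above background on 1 array, irradiated replicate 3, and exceeded the negative controls' 99th percentile on 2. C1qc gave 19.9, 3.32, 8.09 and 2.93 without irradiation and 8.48, 3.34, 8.05 and 2.62 with it, and was well above background on 1 array, non-irradiated replicate 1. C1qc exceeded the negative controls' 99th percentile on 3 arrays and their 95th percentile on 5. On most arrays both genes were therefore not above the 99th percentile of the negative controls.

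Csf1r passed the flag on more arrays than these genes. Its probe A_44_P257582 (chr18:57105231-57105932, spanning 702 bp) ranged from 11.1 to 33.8 and was well above background on 5 of 8 arrays. Its second probe, A_44_P503932 (chr18:57061458-57061517), ranged from 6.01 to 21.5 and passed on 3 of 8. Both exceeded the negative controls' 99th percentile on all 8 arrays. When the flag was replaced by the 95th percentile of the negative controls, or by the software's weaker flag for a positive and significant signal, 8 in place of 7 genes counted as detected on all 8 arrays.

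The probes of 1 gene did not always give the same answer. The second probe of Aif1 ranged from 2.49 to 7.06 and was well above background on 0 of 8 arrays. It passed the weaker flag for a positive and significant signal on 7. Its signal exceeded the negative controls' 95th percentile on 3 arrays and their 99th on 1. The second Tyrobp probe, A_44_P526676 (chr1:85369042-85369101), was designed on an expressed sequence tag whose coordinates run in the opposite order, and passed on 7 of 8 arrays with signals of 8.80 to 37.6. Whether it reads the same strand as the Tyrobp mRNA could not be checked, and it is counted below as a Tyrobp probe because the array design names it so. No probe of the 10 genes was saturated.

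**Figure D1:**
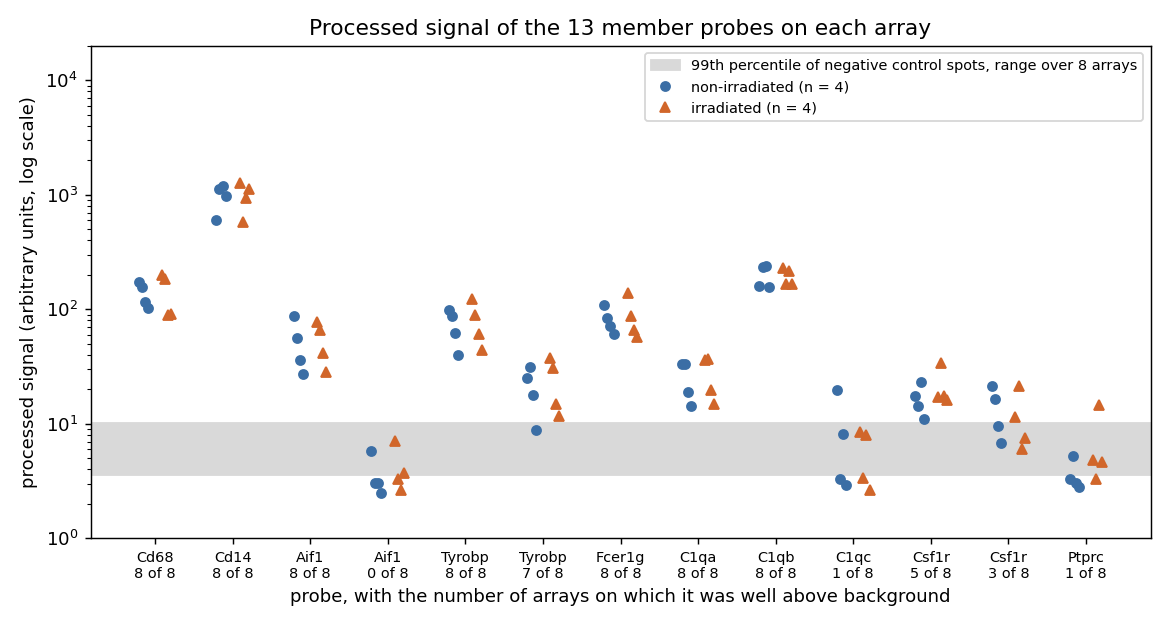
Processed signal on a log axis for the 13 probes of the 10 genes, with circles for the 4 non-irradiated and triangles for the 4 irradiated cultures and a grey band for the 99th percentile of negative control spots (3.56 to 10.1 over the arrays). At least 1 probe of Csf1r and of each of the 7 genes detected on all 8 arrays lies above the band on every array, while Ptprc, C1qc and the second Aif1 probe lie mostly in or under it.

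A list of 33 further macrophage and pan-leukocyte genes held genes of each kind. Of these, 13 were well above background on all 8 arrays, 7 on some and 13 on none. Genes were counted by any of their probes, while the share of 53.5% on all 8 arrays is one of single rat probes. The genes not well above background on any array included Itgb2, the integrin chain shared by leukocyte adhesion receptors, and the scavenger receptors Cd163 and Msr1. Among them were also the mannose receptor Mrc1, Cd53, Mpeg1, the protease Ctss, and Cd74, the chaperone of MHC class II molecules. Their signals are not set against the negative controls here. On the normalized log2 scale Itgb2 averaged 2.57 ± 0.74 (SD, n = 4) without irradiation and 1.72 ± 0.52 (SD, n = 4) with it. Cd74 averaged 1.62 ± 0.08 and 1.68 ± 0.13 (SD, n = 4 each). Spi1, which encodes the lineage factor PU.1, was well above background on all 8 arrays, as were Laptm5, Lcp1, Cd52 and Coro1a. Adgre1, a surface receptor used to mark mouse macrophages, passed on 6 of 8 arrays.

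Markers of other cells were mixed as well. All 8 osteoblast genes were well above background on all 8 arrays, among them Col1a1 and Runx2, the matrix and lineage genes of the labelled cell type. Of 8 osteoclast genes on the array, Acp5 and Ctsk passed on all 8 arrays, and Dcstamp, Tnfrsf11a and Atp6v0d2 on none. The neutrophil gene S100a8 passed on 0 arrays, and 0 of 8 granulocyte genes passed on all 8. Of 11 genes of T and NK cells, 3 passed on all 8 arrays (Cd3d, Zap70 and Nkg7), while Cd3e passed on 1 and Cd2 on 0. Of 6 B cell genes 1 passed on all 8 arrays (Pax5). Of 5 mast cell genes, Kit and Hdc passed on all 8 and Cpa3 on 0. Of 6 endothelial genes 4 passed on all 8, among them Cdh5 and Kdr, and of 5 erythroid genes 2 did, Hba1 and Klf1, with Hbb on 0.

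**Figure D2:**
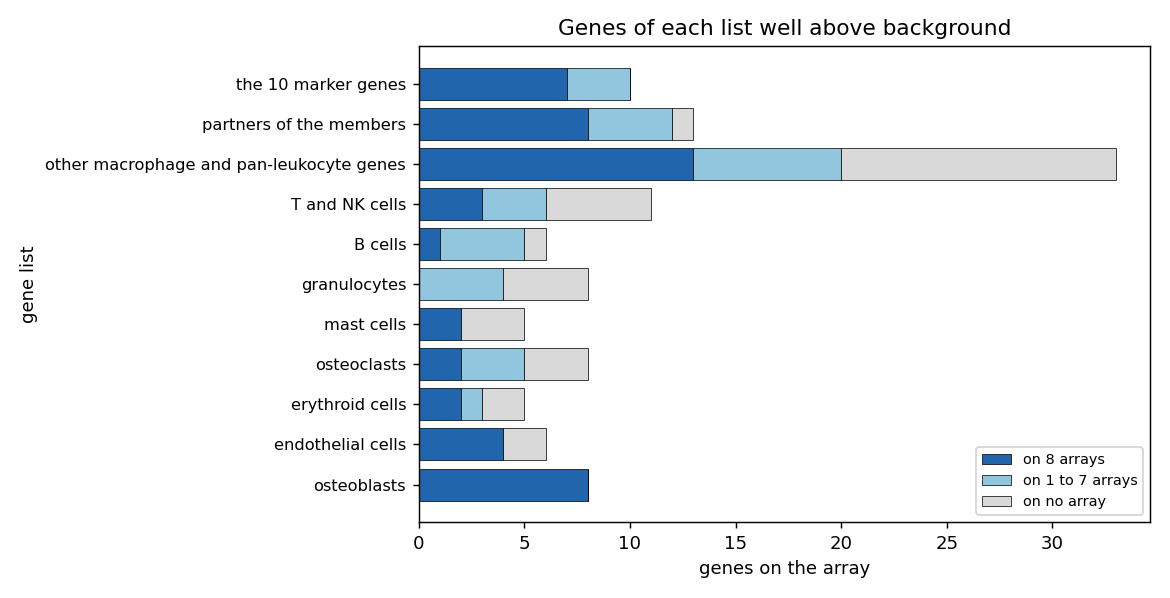
Number of genes on the array in each list that were well above background on all 8, on 1 to 7, or on none of the 8 arrays. The 10 marker genes had 7, 3 and 0 in these classes, and the 33 further macrophage and pan-leukocyte genes 13, 7 and 13.

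The question put to these genes by the design is whether they differ 6 h after irradiation. None did by the paired test. The 7 detected genes had 8 probes in the fit over 26400 probes, and 0 of the 8 passed an adjusted p of 0.1, where 0% of all probes passed. At an unadjusted p under 0.05 the count was 0 of 8, beside 2.56% of all probes. The differences of all 8 probes were above 0, between 0.03 and 0.14 on the log2 scale with a median of 0.07, while the median of all probes was 0.00158. The standard errors were 0.107 to 0.232, and the lowest unadjusted p in limma was 0.281, for Tyrobp.

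For Tyrobp the normalized log2 signals were 6.53, 6.34, 5.91 and 5.59 in non-irradiated replicates 1 to 4 and 6.59, 6.49, 6.11 and 5.68 in irradiated replicates 1 to 4. The irradiated array was the higher one in each of the 4 pairs, by 0.06 to 0.20, and the groups overlapped widely. Tyrobp was the 1 probe of 8 with the same direction in 4 of 4 pairs, and 7.5% of all probes had that. The fitted difference was 0.13 ± 0.11 (SE, n = 4 pairs), with a 95% interval of -0.13 to 0.39 and an adjusted p of 1 in limma. The 10 spots of the probe gave its mean on 1 array with a standard error of up to 0.115, about the size of these differences. The second Tyrobp probe had a difference of 0.14 ± 0.14 (SE) and was higher in 2 of 4 pairs.

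The other adaptor, Fcer1g, had log2 signals of 6.68, 6.28, 6.13 and 6.15 without irradiation and 6.76, 6.49, 6.23 and 6.05 with it. It was higher in 3 of 4 pairs, and the difference was 0.08 ± 0.11 (SE, 95% interval -0.20 to 0.35). C1qa had 4.81, 4.81, 4.28 and 4.27 without and 4.81, 4.99, 4.51 and 4.24 with irradiation. Its difference of 0.09 ± 0.12 (SE, 95% interval -0.19 to 0.37) came with 2 pairs higher and 2 lower. In both genes the arrays of replicates 1 and 2 were above those of replicates 3 and 4 in each group.

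The actin-binding protein gene Aif1 had log2 signals of 6.32, 5.65, 5.16 and 5.09 without irradiation and 5.94, 5.86, 5.59 and 5.11 with it. The pairs moved in both directions, by -0.377 in replicate 1 and 0.42 in replicate 3, and the difference was 0.07 ± 0.16 (SE, 95% interval -0.32 to 0.46). Cd68 had 7.39, 7.19, 6.79 and 6.85 without and 7.31, 7.67, 6.68 and 6.70 with irradiation. It was lower in 3 of 4 pairs and higher by 0.48 in replicate 2, so that the difference of 0.03 ± 0.15 (SE, 95% interval -0.33 to 0.40) became -0.11 without replicate 2. Without replicate 3 the difference of Aif1 was -0.05.

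Cd14 had log2 signals of 9.28, 10.03, 10.04 and 10.04 without irradiation and 10.01, 9.34, 10.06 and 10.24 with it. In replicate 1 the irradiated array was higher by 0.73 and in replicate 2 the difference was -0.695, while replicates 3 and 4 differed by 0.02 and 0.20. C1qb had 7.28, 7.76, 7.78 and 7.44 without and 7.52, 7.47, 7.95 and 7.51 with irradiation. It too was higher in replicate 1, by 0.24, and it differed by -0.282 in replicate 2. The fitted differences were 0.06 ± 0.23 (SE, 95% interval -0.51 to 0.63) for Cd14 and 0.05 ± 0.13 (SE, 95% interval -0.28 to 0.37) for C1qb. Without replicate 1 they were -0.16 and -0.01. These pairs rest on the replicate numbers, and across all tested probes the irradiated array of replicate 2 deviated more like non-irradiated replicate 1 (r = 0.437) than like non-irradiated replicate 2 (r = 0.0553).

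**Figure D3:**
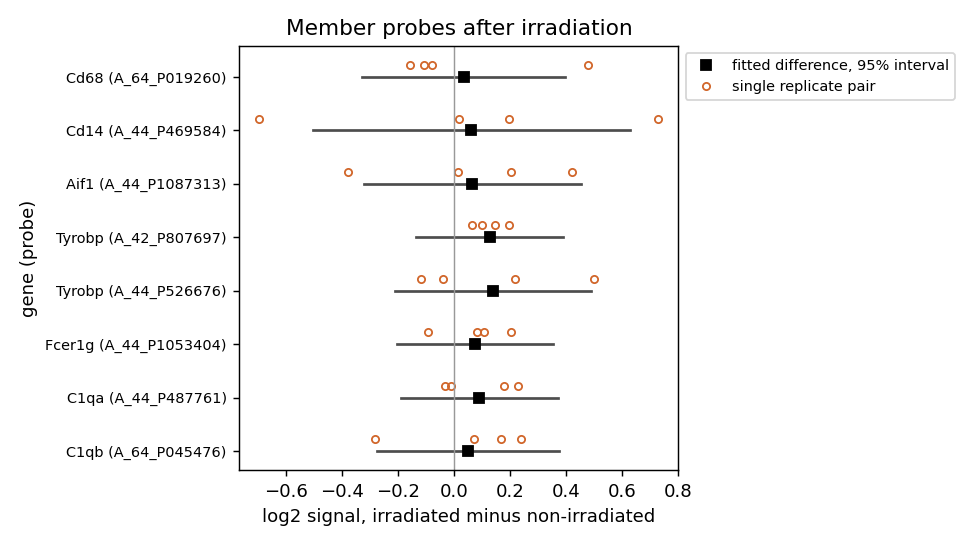
Difference in log2 signal, irradiated minus non-irradiated, for the 8 tested probes, with squares for the fitted difference, lines for its 95% interval and open circles for the 4 replicate pairs. All 8 intervals include 0, and the pairs of Cd14 lie between -0.695 and 0.73.

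In each of the 8 tested probes the 4 replicate means spanned a wider range than the 2 group means. Such a range tends to be wider for 4 means of 2 arrays than for 2 means of 4, even without replicate differences. For the 5 genes Tyrobp, Fcer1g, Aif1, C1qa and Cd68, the mean of both arrays was higher in replicates 1 and 2 than in replicates 3 and 4. Aif1 lay between 5.10 in replicate 4 and 6.13 in replicate 1, a range of 2.04-fold. Tyrobp had replicate means of 6.56, 6.41, 6.01 and 5.64, a range of 1.90-fold, and its second probe ranged over 1.91-fold. The ranges were 1.62-fold for Cd68, 1.57-fold for C1qa and 1.54-fold for Fcer1g. Cd14 went the other way, with replicate means of 9.65, 9.69, 10.05 and 10.14, and C1qb was highest in replicate 3, at 7.86.

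A moderated F test of the replicate terms called 1 of the 8 probes at an adjusted p under 0.1, and it called 9.09% of all probes. The probe was that of Tyrobp (limma, adjusted p = 0.0662). The adjusted p values were 0.112 for the second Tyrobp probe, 0.124 for Aif1, 0.131 for C1qa, 0.155 for Cd68, 0.159 for Fcer1g, 0.343 for C1qb and 0.551 for Cd14. At an unadjusted p under 0.05 there were 6 of 8 probes, or 5 of 7 without the second Tyrobp probe, beside 25.6% of all probes. The count at the adjusted p depended on which replicates were in the fit, and leaving 1 out also leaves fewer arrays. Without replicate 2 the test called 7 of 8 member probes and 36.8% of all probes, and without replicate 1, 3 or 4 it called 0 of 8, with 0.754%, 1.79% and 1.29% of all probes. With arrays scaled to their 75th percentile in place of quantile normalization it called 6 of 8, and 13.6% of all.

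Replicates 1 and 2 lay in row 1 of the slide and replicates 3 and 4 in row 2, so slide row and these replicates cannot be told apart. The non-irradiated arrays lay in columns 1 and 3 and the irradiated ones in columns 2 and 4, which leaves column and irradiation equally joined. The arrays also differed in brightness. The number of rat probes that passed the flag was 26543 to 29946 without irradiation and 28173 to 30490 with it. Over the 8 arrays this number correlated with the log2 signal of C1qa at r = 0.899, Tyrobp at 0.873, Cd68 at 0.804, Aif1 at 0.746, Fcer1g at 0.622, C1qb at -0.093 and Cd14 at -0.592, and over all tested probes the median was 0.085. Values this high were found for 1.22% of tested probes in the case of Tyrobp. The part of brightness in the differences between replicates was not tested.

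**Figure D4:**
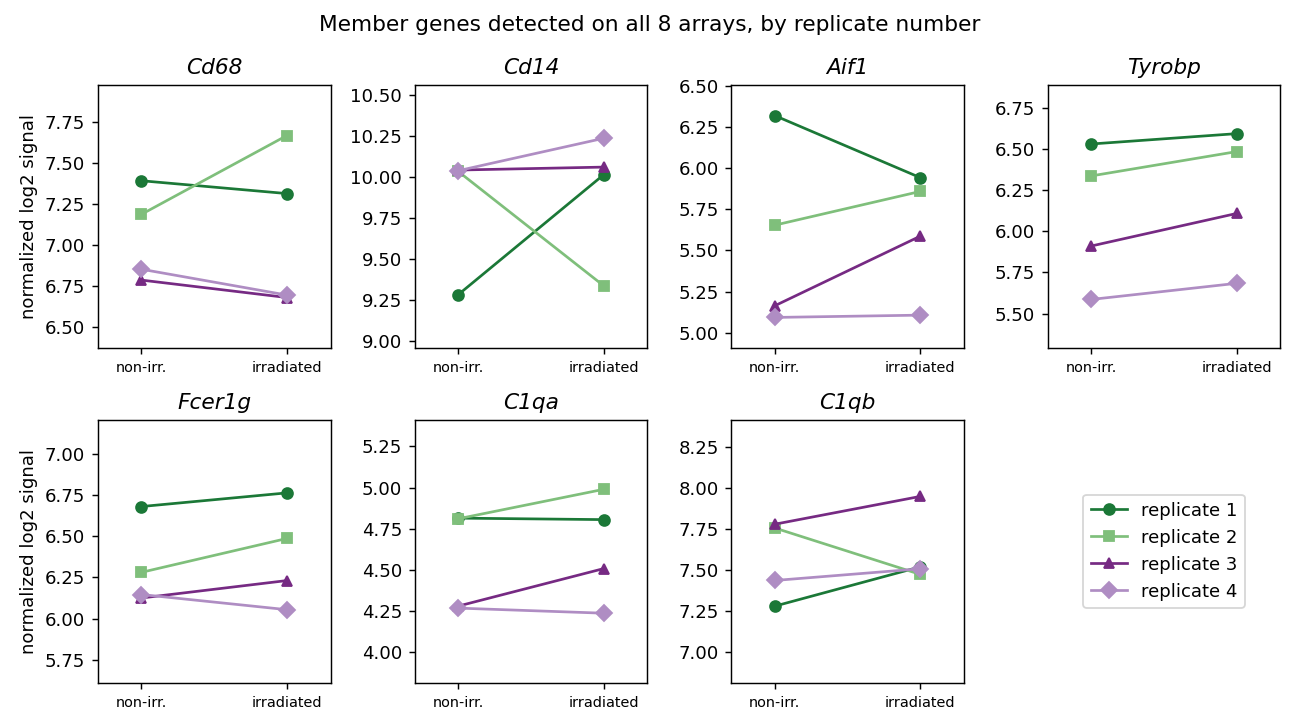
Normalized log2 signal of the 7 genes detected on all 8 arrays, with a line joining the non-irradiated and irradiated array of each replicate number and the same height of the axis range in every panel. Replicates 1 and 2 lie above 3 and 4 for Tyrobp, Fcer1g, Aif1, C1qa and Cd68, and the lines of replicates 1 and 2 cross for Cd14, C1qb, Cd68 and C1qa.

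Correlations between the genes over the 8 arrays rest on the same values as the replicate means. Genes picked for a shared order of replicates therefore tend to correlate, and the correlations are no second observation of it. Between the 5 genes Tyrobp, C1qa, Aif1, Fcer1g and Cd68 all 10 correlations were above 0.7, from 0.781 for Cd68 with Aif1 to 0.939 for Tyrobp with C1qa. These are descriptions over 8 arrays that share 4 replicate numbers and 1 slide. The median correlation of Tyrobp with the other detected members was 0.856, and with all tested probes it was 0.09. For C1qa the values were 0.839 and 0.097, and for Aif1 0.828 and 0.095. A correlation with Tyrobp as high as that of C1qa, the closest pair, was reached by 0.579% of tested probes. For the pair of Cd68 and Aif1 a correlation as high was reached by 10.3% of tested probes with Cd68 and by 14.0% with Aif1, and for Fcer1g and C1qa by 11.7% with Fcer1g and 6.22% with C1qa.

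Cd14 was inversely related to all 5 of these genes, with r from -0.629 with Tyrobp to -0.808 with Cd68. C1qb had r from -0.153 with Tyrobp to -0.522 with Cd68, and r = 0.555 with Cd14. The chain gene C1qa thus had a negative correlation with C1qb, at -0.225, although both encode chains of C1q. The 21 pairs of the 7 genes had a median r of 0.555, with 10 pairs below 0. The 5 genes kept r of at least 0.691 between them when any 1 replicate number was left out. Without replicates 1 and 2 together, a choice made after the data had been seen, r between them ranged from -0.608 to 0.992 over the 4 arrays that remained.

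**Figure D5:**
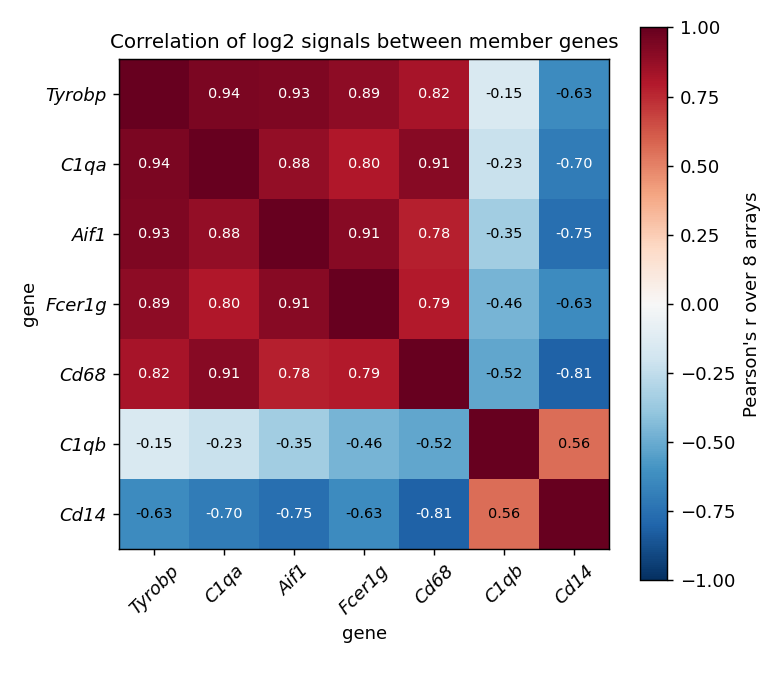
Pearson's r of normalized log2 signals over the 8 arrays for each pair of the 7 detected genes, from blue (-1) to red (1). Tyrobp, C1qa, Aif1, Fcer1g and Cd68 form a block with r of 0.781 to 0.939, and Cd14 and C1qb stand apart from it with 10 negative values.

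Where members vary together, the sequence before their starts is of interest, since PU.1, the factor encoded by Spi1, is known to bind purine-rich sites with the core GGAA upstream of many macrophage genes. All 10 symbols matched the RefSeq gene table and 6 the RefSeq promoter table (build GRCr8): C1qa, C1qb, Cd68, Cd14, Csf1r and Ptprc. The motif GAGGAA was searched on both strands in the 250 bases before the annotated start. It was present in 5 of these 6 windows and in 23.3% of all 33469 windows of that length. The 5 were those of C1qb, Cd14, Cd68, Csf1r and Ptprc. Of the genes that varied together, Cd68 had a match, C1qa had none, and Tyrobp, Aif1 and Fcer1g had no window. Whether the motif goes with the shared variation could therefore not be tested. The longer motif GAGGAAGT was in 0 of 6 and in 2.0% of all. The windows of C1qa, C1qb and Cd68 are shown, all on the minus strand and written 5′ to 3′ towards the start, as those of 2 co-varying genes and of the C1q chain that did not follow them. Capitals mark GAGGAA or its reverse complement TTCCTC.
C1qa, chr5:154419934-154420183: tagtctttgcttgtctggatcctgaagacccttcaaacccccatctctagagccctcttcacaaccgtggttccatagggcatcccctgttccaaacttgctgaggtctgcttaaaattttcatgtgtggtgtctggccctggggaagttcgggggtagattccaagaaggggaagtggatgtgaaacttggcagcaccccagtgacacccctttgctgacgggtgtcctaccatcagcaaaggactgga
C1qb, chr5:154407828-154408077: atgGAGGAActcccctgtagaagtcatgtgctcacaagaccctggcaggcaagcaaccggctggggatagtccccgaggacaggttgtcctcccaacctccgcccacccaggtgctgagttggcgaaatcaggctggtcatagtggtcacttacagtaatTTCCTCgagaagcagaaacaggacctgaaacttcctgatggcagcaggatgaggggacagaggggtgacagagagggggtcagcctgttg
Cd68, chr10:54882442-54882691: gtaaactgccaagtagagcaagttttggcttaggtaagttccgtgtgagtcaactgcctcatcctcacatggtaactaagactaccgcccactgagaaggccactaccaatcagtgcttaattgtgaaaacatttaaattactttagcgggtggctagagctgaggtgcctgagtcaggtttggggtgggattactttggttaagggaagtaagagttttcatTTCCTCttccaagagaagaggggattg
The C1qa window holds no match to GAGGAA, the C1qb window has matches beginning 247 and 90 bases before the start, and the Cd68 window has 1 that begins 27 bases before it. The shorter core GGAA, which was not searched for, does occur in the C1qa window. A match is a run of letters and not a measured binding site.

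The partners of these proteins were measured on the same arrays. Of 13 partner genes, 8 were well above background on all 8 arrays and 9 were tested, and 0 of the 9 passed an adjusted p of 0.1 or an unadjusted p of 0.05 after irradiation. Csf1, a ligand of Csf1r, had mean log2 signals of 11.98 ± 0.31 without and 12.02 ± 0.58 with irradiation (SD, n = 4 each), and the other ligand Il34 had 6.58 ± 0.26 and 6.53 ± 0.13. Both ligands were well above background on all 8 arrays, where Csf1r itself was on 5.

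Trem2, the receptor that signals through Tyrobp, had log2 signals of 4.52, 4.49, 4.32 and 3.94 without irradiation and 4.73, 4.73, 4.51 and 4.11 with it. It was higher in all 4 pairs, by 0.17 to 0.24, and the groups overlapped. The difference was 0.20 ± 0.11 (SE, limma, unadjusted p = 0.104, adjusted p = 1). Its levels followed the mean standardized signal of the 7 detected genes with r = 0.945. That mean itself correlated at r = 0.842 with the number of rat probes that passed the flag on an array. Trem2 was well above background on 7 of 8 arrays. Syk and the Fc receptor genes Fcgr1a and Fcgr2b were each well above background on 3 of 8 arrays, and Fcgr3a on 0.

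Of the proteins that work with Cd14, Ly96 (MD-2), which carries lipopolysaccharide to the receptor Tlr4, was higher by 0.60 in the irradiated array of replicate 1 and differed by -0.56 in replicate 2. Lbp, the binding protein that delivers lipopolysaccharide to Cd14, differed by 0.49 and -0.53 in these pairs. Tlr4 differed by -0.09 and 0.28. A difference above 0 in pair 1 and below 0 in pair 2 was seen in 30.3% of all tested probes, and among the other partners C1s had 0.76 and -0.89 and Csf1 0.37 and -0.38. Over the 4 pairs the differences were 0.06 ± 0.20 for Ly96, 0.07 ± 0.19 for Lbp and 0.03 ± 0.12 for Tlr4 (SE).

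The partners of C1q are the proteases C1r and C1s and their inhibitor Serping1. C1s had mean log2 signals of 5.57 ± 0.68 without and 5.81 ± 0.77 with irradiation, and C1r of 9.73 ± 0.22 and 9.74 ± 0.25 (SD, n = 4 each). Serping1 had replicate means of 7.76, 7.08, 6.21 and 4.71, and was the 1 partner gene called by the F test of replicates (limma, adjusted p = 0.00704). Both C1r and Serping1 are also made by stromal cells.

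In the further macrophage and pan-leukocyte list, 13 of 33 genes were tested, and 0 passed at an adjusted p of 0.1 or an unadjusted p of 0.05. The largest differences among them were -0.34 ± 0.16 for Ncf4, -0.30 ± 0.39 for the factor gene Spi1 and 0.29 ± 0.17 for the integrin gene Itgam (SE). The F test of replicates called 3 of the 13, among them the lysozyme gene Lyz2 (adjusted p = 0.0191) and the actin-bundling gene Lcp1 (adjusted p = 0.0415), both in limma. Lyz2 had replicate means of 7.84, 6.07, 5.85 and 4.84, and Lcp1 of 7.86, 7.99, 7.46 and 6.41. Lyz2 and Lcp1 were highest in replicates 1 and 2 and lowest in replicate 4.

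Some genes of other cell types also differed between the replicates, where the F test called 9.09% of all probes. It called 0 of 4 genes tested for T and NK cells, 0 of 1 for B cells and 0 of 3 for erythroid cells. Of 8 osteoblast genes it called 3, Alpl (adjusted p = 0.02), Bglap (0.0276) and Ibsp (0.0656), each in limma. Alpl, the alkaline phosphatase of mineralizing cells, had replicate means of 10.73, 10.35, 10.33 and 8.49, and Bglap, which encodes osteocalcin, of 8.81, 8.04, 8.20 and 6.84. Of 2 osteoclast genes tested it called Ctsk (adjusted p = 0.0306, replicate means 14.39, 13.20, 12.97 and 12.79) and not Acp5 (adjusted p = 0.155). Of 4 endothelial genes tested it called Kdr, a receptor for vascular endothelial growth factor (adjusted p = 0.0325, replicate means 9.32, 9.32, 7.64 and 7.23), and the receptor gene Tek (adjusted p = 0.0276, replicate means 8.03, 6.11, 5.76 and 6.27). Of 2 mast cell genes tested it called Hdc, the enzyme that makes histamine (adjusted p = 0.0157, replicate means 6.56, 5.29, 4.75 and 4.65), all in limma. Kdr followed the mean standardized signal of the 7 detected marker genes with r = 0.899. The part of other cell types in the differences of the marker genes was not tested. The lowest replicate of Alpl, Bglap, Ctsk, Kdr and Hdc and of Tyrobp, Fcer1g, Aif1 and C1qa was replicate 4. For Tek and Cd68 it was replicate 3, and Cd14 was highest in replicate 4.

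The genes outside the group whose log2 signals were most like the mean standardized signal of the 7 detected members, over 8 arrays, included Gpr17 (r = 0.987), Alkbh8 (0.980), Cfap77 (0.979), Plekhn1 (0.954), Dnajc1 (0.951), Lgals3 (0.949), Igf2 (0.947), Myo6 (0.947) and Retn (0.946). The mean standardized signal was 0.34, 0.37, -0.41 and -0.75 in non-irradiated and 0.70, 0.41, 0.04 and -0.71 in irradiated replicates 1 to 4. It was higher in the irradiated array of each replicate number, by less than the difference between replicates 1 and 4. The mean joins genes that moved in opposite directions. From the non-irradiated to the irradiated array of replicate 1, Cd14 rose from -1.665 to 0.371 and Aif1 fell from 1.633 to 0.788. In replicate 2 Cd14 fell from 0.428 to -1.511 and C1qa rose from 0.735 to 1.329. Of all single probes 7.5% had the same direction in 4 of 4 pairs. Lgals3, which encodes the lectin galectin-3 of macrophages and many other cells, had log2 signals of 16.19, 16.16, 15.89 and 15.47 without and 16.43, 16.29, 15.77 and 15.38 with irradiation. Igf2 had 7.5, 7.48, 7.06 and 6.96 without and 7.53, 7.55, 7.44 and 7.12 with irradiation.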

How the data were processed

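Expression was measured on 8 one-color arrays on 1 slide, 4 from non-irradiated and 4 from irradiated cultures. Groups and replicate numbers came from the sample labels. For every spot the authors deposited intensity values from Agilent Feature Extraction 11.0.1.1. The processed signal among them had its background subtracted and spatial trends removed, with no step between arrays. They also deposited log2 values that they had quantile normalized, used here as an alternative. Columns of per-sample values without a match to a sample numbered 0. Probe positions are those of the array design (build rn4), and promoter windows are from RefSeq (GRCr8).

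Processed signals were transformed to log2 without an added constant and quantile normalized over 58717 rat spots, outlying spots were left out, and spots of a probe were averaged. Probes well above background in over 50% of spots on all 4 arrays of a group (26404) were tested in limma 3.58.1 (R 4.3.3; lmFit, then eBayes). The model held irradiation and replicate number, and tests were two-sided with Benjamini-Hochberg adjustment and a limit of 0.1. Of these, 26400 could be fitted, and the F test of replicate terms covered 26250. Quantile normalization makes the distribution of every array the same and can shift dim probes when arrays differ in brightness. The fit was tested on simulated data before use. Promoters and figures were handled with Python, pandas and matplotlib.

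The pairing comes from the array names, in which arrays with the same replicate number carry 1 common animal number. Over tested probes, deviations from the group means correlated within numbers 1 to 4 at 0.608, 0.0553, 0.570 and 0.749, and between non-irradiated 1 and irradiated 2 at 0.437, so that whether both arrays of replicate 2 share an animal is uncertain. Nothing more says how cultures of 1 animal were handled, so p-values measure the spread between these cultures. The number of arrays limits the precision.

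The 10 genes and all gene lists were chosen with earlier results of these data known, so no list is independent evidence. The text names each of the 10 genes with every probe, each partner gene, for other lists defining markers and the largest differences, and genes among the 10 most similar. A few genes these rules select are not reported here. Further genes at or above background, and those called by the F test, were named after their values were seen. For genes with several probes the probe with the highest mean was used in correlations and lists.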

Additional observations from a re-analysis of the deposited data

Results flagged for a closer look

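In 2 of the 16 groups of 4 arrays examined for the 8 tested probes, 1 array lay far from the others, where chance gives about 5% of groups. Cd14, the co-receptor for lipopolysaccharide, was lowest in non-irradiated replicate 1, at a log2 signal of 9.28, while the other non-irradiated arrays lay between 10.03 and 10.04. C1qb was highest in irradiated replicate 3, at a log2 signal of 7.95, while the other irradiated arrays lay between 7.47 and 7.52. Their part in the difference after irradiation was not tested beyond leaving out each replicate.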

How the results depend on the processing

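No member probe passed the adjusted p of 0.1 after irradiation under any alternative (limma, lowest adjusted p 0.866), and 0 member probes had an unadjusted p under 0.05 in each. Of 118 fold changes of single probes recomputed, 111 kept their direction. The reversed ones were Aif1 at -0.029 and Cd68 at -0.006 with the deposited log2 values, C1qb at -0.014 and Cd14 at -0.16 without replicate 1, Cd68 at -0.114 without replicate 2, Aif1 at -0.053 without replicate 3, and Cd68 at -0.132 without replicates 1 and 2 together, an alternative chosen after seeing the data. All were smaller than their standard error or close to it, and the cause was not tested. When each replicate was left out in turn, the differences ranged from -0.053 to 0.214 for Aif1, -0.114 to 0.098 for Cd68, -0.014 to 0.16 for C1qb and -0.16 to 0.315 for Cd14. Without the replicate block, and with it as a random term, 0 probes were called and 0 member probes had an unadjusted p under 0.05, as with the block.

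The number of member probes called different between replicates was 1, and it was 6 after scaling to the 75th percentile, 2 in the deposited log2 table, 0 when dim probes were kept, 0 to 7 when each replicate was left out, and 0 without replicates 1 and 2. Over all probes the count of 2386 became 3621 with normexp, 3675 in the deposited log2 table, 618 when dim probes were kept, 198 to 9693 when each replicate was left out and 1148 without replicates 1 and 2. Fewer arrays remain in the last of these settings. The median correlation of 0.555 became -0.245 over the 8 genes of the deposited values and -0.11 over all 10 genes with no filter. It was 0.315 to 0.691 when each replicate was left out, and -0.085 without replicates 1 and 2. Of the 21 pairs behind the main median, 10 lay below 0. Between Tyrobp, C1qa, Aif1, Fcer1g and Cd68, r was 0.777 to 0.92 with the deposited values and 0.781 to 0.939 with no filter. Without replicates 1 and 2 it was -0.608 to 0.992. Detection on all 8 arrays held for 7 or 8 genes under every rule tried. Signals near background, as for Ptprc and C1qc, set the limit: a lower level there could not be seen.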
